A study of Homo sapiens with 3 samples.

Results

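The DNA repair gene families RAD, FANC, XRCC, ERCC, MSH, MLH, NEIL and BRCA, with MRE11 and EXO1, were followed in MDA-MB-231, a widely used human cell line from a triple-negative breast tumour. Members were all protein-coding genes of the array annotation whose symbol starts with one of these family names, with a digit required after RAD, and each gene was read from 1 probe set, chosen by its mean over the arrays, which had to be the highest. This gave 33 genes of the 11916 protein-coding genes with a named probe set. Cultures were treated for 72 h with 10 µM Mt-CFX, with 10 µM CFX, or with 1% DMSO, the solvent, as the control. Ciprofloxacin, a fluoroquinolone antibiotic, is named in the title of the series, and Mt-CFX is known here by its code name alone. A DMSO content is stated for the control only, so the solvent may differ between the groups. Each of the 3 groups was 1 array (n = 1). No value has a replicate error, no test could be made and no p-value is given, so a difference between arrays cannot be set against the spread between cultures.

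As background, cells mend different DNA lesions by different routes. Double-strand breaks are trimmed at their ends and copied from the sister chromatid by homologous recombination, or are held by the Ku proteins and joined directly. Mismatch repair removes replication errors that MutS proteins recognise, base excision repair starts with glycosylases that cut out damaged bases, and nucleotide excision repair cuts out bulky lesions. Crosslinks between the strands are handled by the Fanconi anemia proteins together with recombination. Transcripts of several recombination and mismatch repair genes are known to be more abundant in S and G2 phase, when a sister chromatid is present. The bacterial targets of fluoroquinolones are the type II topoisomerases, enzymes that pass DNA strands through a transient break.

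Expression was given as a log2 value per probe set. A gene was compared when its highest array reached the floor, the median of all probe sets at 3.89 log2, and 8868 protein-coding genes did. Of the 33 members, 29 were above the floor, each on all 3 arrays, so none entered through the group in which it was high. The other members, RAD9B, RAD21L1, RAD51AP2 and FANCD2OS, lay below the floor with equal values on the 3 arrays. The members above the floor comprised 14 genes of double-strand break repair, 4 of mismatch repair, 5 of excision repair and 6 with other roles. The list of symbols drawn up for these families held 27 further genes that were not analysed here, among them all 10 listed Fanconi anemia proteins of the FANC family and all ERCC genes, so the family symbols themselves gave no crosslink repair member. Many genes had exactly equal values across arrays: 45.3% of all compared genes were equal on all 3 arrays, and 8 of the 29 members, or 27.6%, were. An equal value is one that the summary of the probes did not separate. It does not show that the transcript did not respond. The line's markers VIM, CD44, EGFR, AXL and ANXA1 were above the floor on all 3 arrays, PGR was below it on all 3, and ESR1 stood at 3.81 with Mt-CFX, 3.92 with CFX and 3.81 in the control. Other luminal epithelial markers, KRT18, KRT8, GATA3, EPCAM and FOXA1, were above the floor on all 3 arrays.

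With Mt-CFX, 4 repair genes were lower than in the DMSO control by at least 1.2-fold, which is 0.26 on the log2 scale, and 0 were higher by that size. They were RAD54L, EXO1, XRCC6 and MSH6. This was 4 of 29 members, against 5.73% of all compared genes lower and 5.99% higher at the same size. Counting differences of any amount, 11 members lay lower, 8 higher and 10 at equal values, while 23.2% of all compared genes were lower and 23.9% were higher. The median difference was 0.00 log2 over the members and 0.00 over all compared genes.

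With CFX, differences from the control were small, and 17 of 18 unequal members were higher. Of the 29 members 17 were higher by any amount, 1 was lower and 11 were equal, against 25.8% of all compared genes higher and 15.0% lower. Among genes that were not equal, 94.4% of the members and 63.2% of all compared genes were higher. Sets outside these families also had more genes higher than lower with CFX, as did all compared genes. Of 10 proliferation markers 8 were higher and 0 lower, and of 58 other repair genes 23 were higher and 4 lower. Of 25 replication genes 15 were higher and 8 lower, a balance close to that of all compared genes. At 1.2-fold, 0 members were higher and 0 were lower, where 1.76% and 1.29% of all compared genes were. The higher members spanned 0.0017 to 0.19 log2, with RAD50, MRE11, RAD51C and EXO1 at the top, and the lower member was XRCC6 at −0.10.

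**Figure D1:**
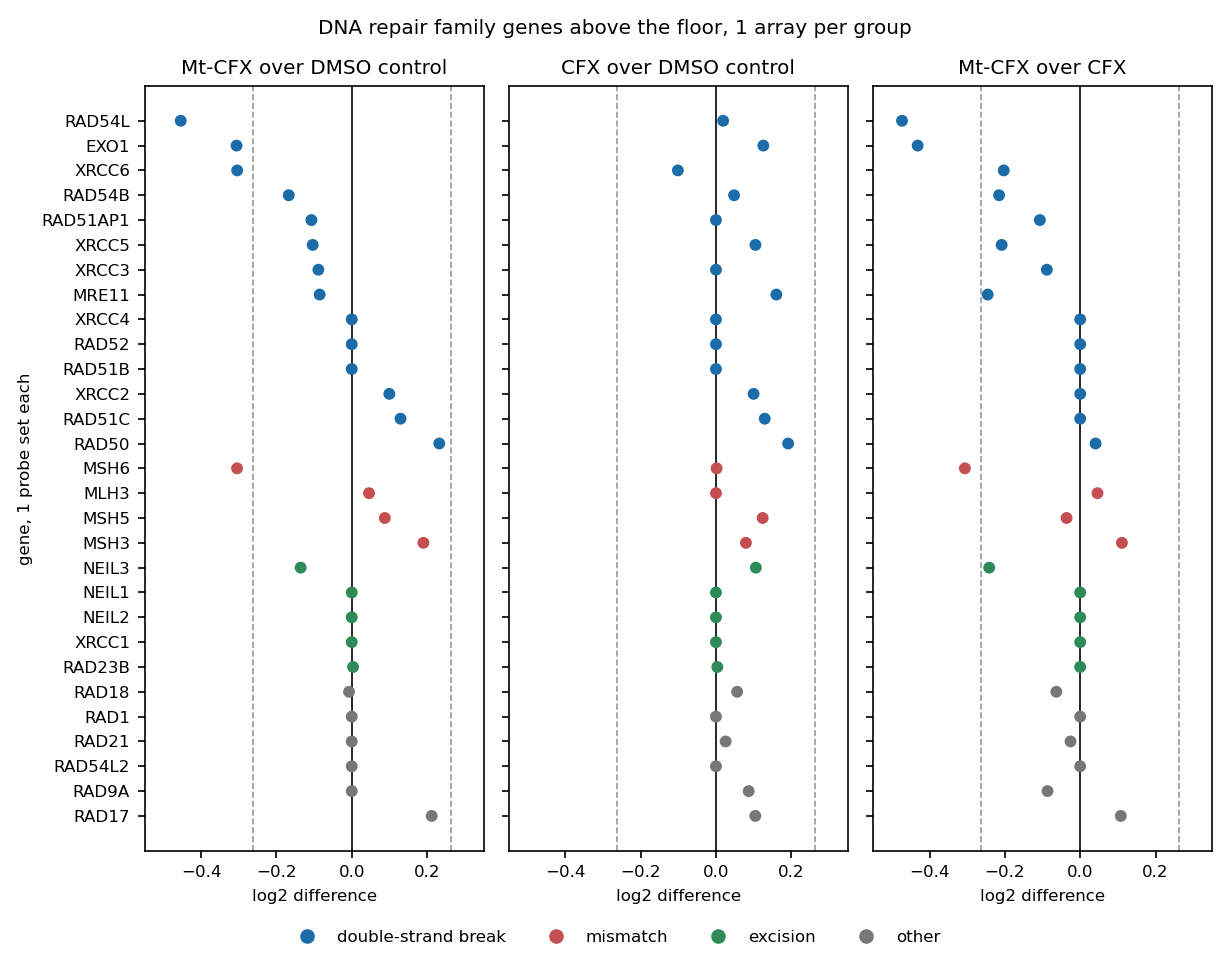
Log2 difference (horizontal axis) of each repair gene above the floor (vertical axis, coloured by repair class) in the 3 comparisons, with 1 array per group and dashed lines at 1.2-fold. With Mt-CFX over DMSO control 4 points lie left of the lower line, with CFX over DMSO control none does, and with Mt-CFX over CFX 3 do.

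The promoters of the 4 members lower with Mt-CFX are shown because these genes carry the count at 1.2-fold. Each is the 250 bases before the annotated start on the gene's strand, from RefSeq on GRCh38.p14. The windows are chr1:46247438-46247687 (plus strand) for RAD54L, chr1:241847954-241848203 (plus strand) for EXO1, chr2:47782895-47783144 (plus strand) for MSH6 and chr22:41621045-41621294 (plus strand) for XRCC6. Capitals mark the CCAAT box, searched as CCAAT on both strands, which here reads ATTGG.
RAD54L: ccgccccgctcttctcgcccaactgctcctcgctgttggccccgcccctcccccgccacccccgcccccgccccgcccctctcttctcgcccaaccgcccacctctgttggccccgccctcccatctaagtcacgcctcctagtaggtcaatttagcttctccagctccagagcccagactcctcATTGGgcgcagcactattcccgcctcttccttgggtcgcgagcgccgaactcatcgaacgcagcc
EXO1: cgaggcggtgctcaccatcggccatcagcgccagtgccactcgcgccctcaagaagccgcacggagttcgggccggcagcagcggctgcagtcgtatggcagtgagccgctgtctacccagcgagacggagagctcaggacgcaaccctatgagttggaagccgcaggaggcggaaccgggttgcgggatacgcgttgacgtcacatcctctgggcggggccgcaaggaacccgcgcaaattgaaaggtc
MSH6: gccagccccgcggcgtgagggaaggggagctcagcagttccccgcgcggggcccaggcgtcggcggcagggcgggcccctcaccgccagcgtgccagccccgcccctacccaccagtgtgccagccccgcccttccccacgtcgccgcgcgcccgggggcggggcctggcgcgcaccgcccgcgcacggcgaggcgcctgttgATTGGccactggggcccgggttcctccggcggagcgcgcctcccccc
XRCC6: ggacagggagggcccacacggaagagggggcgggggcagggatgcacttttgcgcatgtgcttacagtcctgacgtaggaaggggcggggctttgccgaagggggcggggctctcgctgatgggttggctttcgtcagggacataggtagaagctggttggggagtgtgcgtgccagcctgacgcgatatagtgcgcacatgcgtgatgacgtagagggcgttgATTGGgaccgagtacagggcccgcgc

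The CCAAT letters lay 65 to 61 bases before the start of RAD54L, 47 to 43 before that of MSH6 and 26 to 22 before that of XRCC6, and the EXO1 window held none. Of the 29 members above the floor 25 had a promoter in the table, and 11 of these windows, or 44.0%, held the letters, against 35.2% of 7341 promoters of compared genes. An E2F-like motif, spelled TTTGGCGC or TTTCCCGC and searched on both strands, was in 1 of the 25 windows, that of MSH3, against 3.20% of all. The cell cycle element TTTGAA was in 3 of the 25, or 12%, those of MSH5, NEIL3 and XRCC1, against 8.40% of all. The windows shown held no E2F-like or TTTGAA match. The matches describe letters in a window and do not mark a site in use.

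Double-strand break repair, with EXO1 counted in it, held 3 of the 4 genes lower with Mt-CFX. Its 14 members had a median difference of −0.087 log2, with 8 lower, 3 higher and 3 equal by any amount, against 23.2% of all compared genes lower and 23.9% higher. At 1.2-fold 3 of the 14 were lower, against 5.73% of all compared genes. RAD54L, a motor protein of homologous recombination, was at 6.16 with Mt-CFX, 6.64 with CFX and 6.62 in the control. The Mt-CFX array was apart from the other arrays, which lay close together. The difference from the control was −0.45 log2, or 0.730 of the control level, and 2.28% of all compared genes had a difference at or below it. RAD54B, a relative of RAD54L with a like motor domain, was at 6.78, 7.00 and 6.95 with Mt-CFX, with CFX and in the control. It had the same order of arrays over a narrower range, with a difference of −0.17 between Mt-CFX and the control.

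Genes of end processing differed in direction with Mt-CFX. EXO1, an exonuclease that trims break ends and also removes the mismatched strand in mismatch repair, was at 7.46 with Mt-CFX, 7.89 with CFX and 7.77 in the control. Mt-CFX gave the lowest of the 3 values and CFX the highest, with differences from the control of −0.31 and 0.13 log2. MRE11, the nuclease that starts end trimming, was at 7.28 with Mt-CFX, 7.52 with CFX and 7.36 in the control, the same order. RAD50, the coiled-coil partner of MRE11 that tethers break ends, was at 8.15 with Mt-CFX, 8.11 with CFX and 7.91 in the control. Both compounds gave higher values of RAD50 than the control, by 0.23 log2 with Mt-CFX and by 0.19 with CFX. The difference of RAD50 exceeded that of MRE11 by 0.32 log2 in Mt-CFX over control and by 0.031 in CFX over control, so these partners lay further apart with Mt-CFX than with CFX. NBN, the third subunit, was outside the symbol rule and was at 0.05 in Mt-CFX over control and 0.13 in CFX over control.

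Of the genes of the Ku proteins, which bind break ends for direct joining, XRCC6 reached the 1.2-fold size with Mt-CFX and XRCC5 did not. XRCC6, which encodes Ku70, was at 7.52 with Mt-CFX, 7.72 with CFX and 7.82 in the control, a difference of −0.30 with Mt-CFX. It was the only member above the floor that was lower than the control with CFX, at −0.10. XRCC5, which encodes Ku80, was at 10.08 with Mt-CFX, 10.28 with CFX and 10.18 in the control, with differences from the control of −0.10 and 0.10 log2. Between the compounds the subunits differed nearly alike, by −0.20 for XRCC6 and −0.21 for XRCC5. XRCC4, which holds the ligase of end joining, had the same value on the 3 arrays.

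Among the genes that help assemble the recombination filament, RAD51C was at 6.02 on both compound arrays, against 5.89 in the control, a difference of 0.13 log2. XRCC2 showed the same pattern, at 7.35 with either compound, against 7.25 in the control. XRCC3 was at 4.83 with Mt-CFX, against 4.92 both with CFX and in the control, and RAD51B was equal on all arrays. RAD51AP1, an accessory factor of recombination, was lower with Mt-CFX by −0.11 log2 and equal between CFX and the control. RAD52, which anneals single strands, was equal on the 3 arrays.

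**Figure D2:**
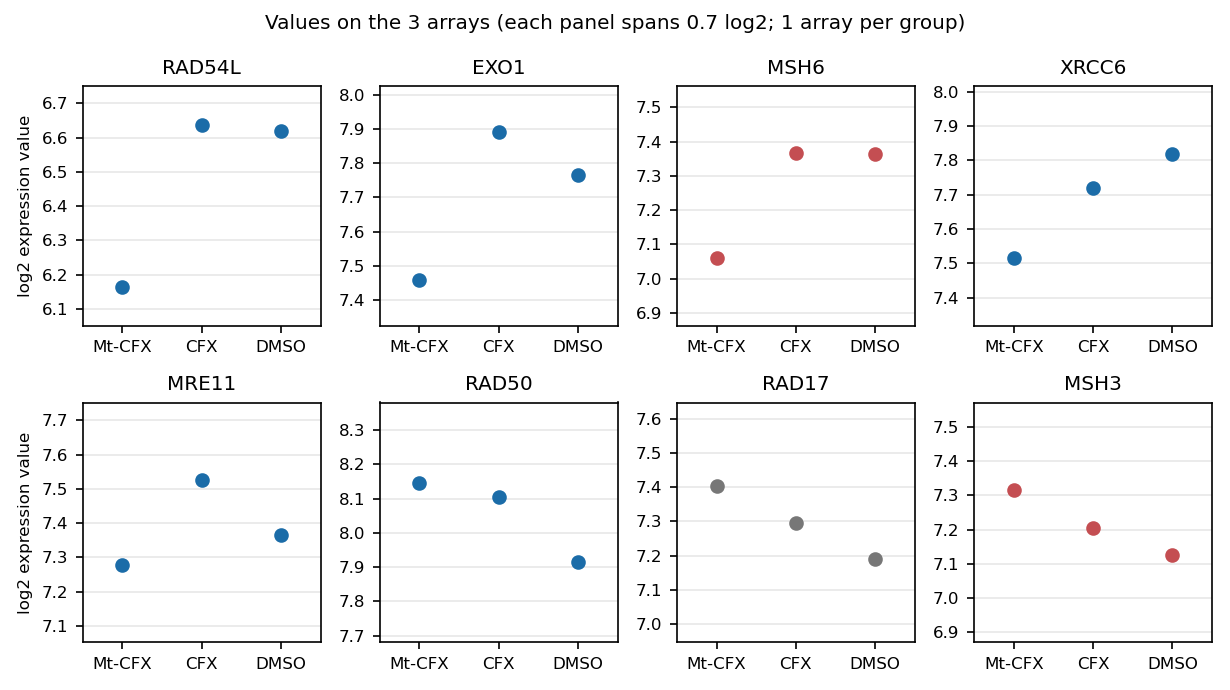
Log2 expression values (vertical axis) of 8 repair genes on the Mt-CFX, CFX and DMSO control arrays (horizontal axis), 1 point per array, each panel spanning the same width of log2 units. RAD54L, EXO1, MSH6 and XRCC6 have their lowest point with Mt-CFX, while RAD50, RAD17 and MSH3 have their highest there.

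Mismatch repair genes went both ways with Mt-CFX. MSH6 and MSH3 encode alternative subunits of the mismatch sensor, MSH6 for base mismatches and MSH3 for larger loops. MSH6 was at 7.06 with Mt-CFX, 7.37 with CFX and 7.36 in the control. The Mt-CFX value was apart from a nearly equal pair, with a difference from the control of −0.30 log2, or 0.810 of the control level. MSH3 was at 7.32 with Mt-CFX, 7.21 with CFX and 7.13 in the control, with Mt-CFX the highest of the 3 values, and with differences from the control of 0.19 and 0.080. The difference of MSH3 exceeded that of MSH6 by 0.49 log2 in Mt-CFX over control and by 0.078 in CFX over control. MSH5, a MutS relative of meiosis, was higher by 0.088 with Mt-CFX and 0.12 with CFX at the probe set used, and by 0.16 and 0.12 at its other probe set. MLH3, a MutL protein, was higher by 0.046 with Mt-CFX and equal between CFX and the control. The median of the 4 genes was 0.067 with Mt-CFX and 0.041 with CFX.

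The excision repair genes with these family symbols differed little, and those outside the symbols are given further below. NEIL3, a glycosylase that acts on single-stranded and crosslinked DNA, was at 7.63 with Mt-CFX, 7.87 with CFX and 7.77 in the control. Its Mt-CFX value was the lowest and its CFX value the highest, as for EXO1 and MRE11. NEIL1 and NEIL2, the other glycosylases of the family, and XRCC1, the scaffold of base excision and strand break repair at 7.30, were equal on the 3 arrays. RAD23B, a partner of the lesion sensor XPC, was at 8.52 with Mt-CFX, 8.52 with CFX and 8.51 in the control. The median over the 5 genes was 0.00 log2 in each of the 3 comparisons.

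Of the members with other roles, RAD17, which loads the checkpoint clamp onto DNA, was at 7.40 with Mt-CFX, 7.30 with CFX and 7.19 in the control. It was higher by 0.21 log2 with Mt-CFX and by 0.10 with CFX. The clamp subunit RAD9A was at 5.68 with Mt-CFX, 5.77 with CFX and 5.68 in the control, and its partner RAD1 was equal on all arrays. RAD18, the ubiquitin ligase that marks stalled replication sites, differed by −0.0071 with Mt-CFX and 0.056 with CFX. The cohesin subunit RAD21 differed by 0.00 and 0.026, and the helicase-like gene RAD54L2 was equal.

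Set directly against CFX at the same dose and time, the single pair of compounds compared, Mt-CFX gave 3 members lower at 1.2-fold and 0 higher, against 5.76% and 4.68% of all compared genes. RAD54L was at −0.47 log2, EXO1 at −0.43 and MSH6 at −0.31. MRE11 at −0.25, NEIL3 at −0.24, RAD54B at −0.22, XRCC5 at −0.21 and XRCC6 at −0.20 followed without reaching that size. Counting any amount, 14 members lay lower, 4 higher and 11 at equal values, against 25.2% of all compared genes lower and 20.1% higher. The 4 higher members were MSH3 at 0.11, RAD17 at 0.11, MLH3 at 0.046 and RAD50 at 0.041. This comparison shares an array with each of the others, so the 3 sets of values are not independent. With 1 array per compound no interval of these differences can be given, and a like value with both compounds does not show a like response.

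Genes of DNA replication were mostly lower with Mt-CFX. Of 25 measured S-phase replication genes 24 were lower with Mt-CFX than in the control, 18 of them by 1.2-fold. Their median was −0.34 log2 with Mt-CFX and 0.017 with CFX. Of all compared genes 23.2% were lower with Mt-CFX by any amount and 5.73% by 1.2-fold. The lists of this paragraph were chosen with earlier results of these data known. The helicase subunits MCM4 and MCM2 were at −0.54 and −0.38 with Mt-CFX. The 10 proliferation markers had a median of −0.21 with Mt-CFX, with 3 of them lower by 1.2-fold. MKI67 was lowest at −0.60, and CDK1 and AURKB were at 0.00. With CFX 8 of these markers were higher by any amount, 0 were lower and 2 were equal, with a median of 0.055. Of all compared genes 25.8% were higher and 15.0% lower with CFX. Of the members listed as more abundant in S and G2 phase 5 were measured, RAD54L, EXO1, MSH6, NEIL3 and RAD51AP1, with a median of −0.30 with Mt-CFX. RAD54L, EXO1 and MSH6 were lower by 1.2-fold, while NEIL3 at −0.14 and RAD51AP1 at −0.11 did not reach that size. The median restates members already counted above as lower and is not a separate result. With CFX the same genes had a median of 0.019, with 4 higher and 1 equal. The part of these shifts in the values of the repair genes was not tested, and in RNA of a whole culture fewer cells in a phase and less transcript per cell cannot be told apart.

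**Figure D3:**
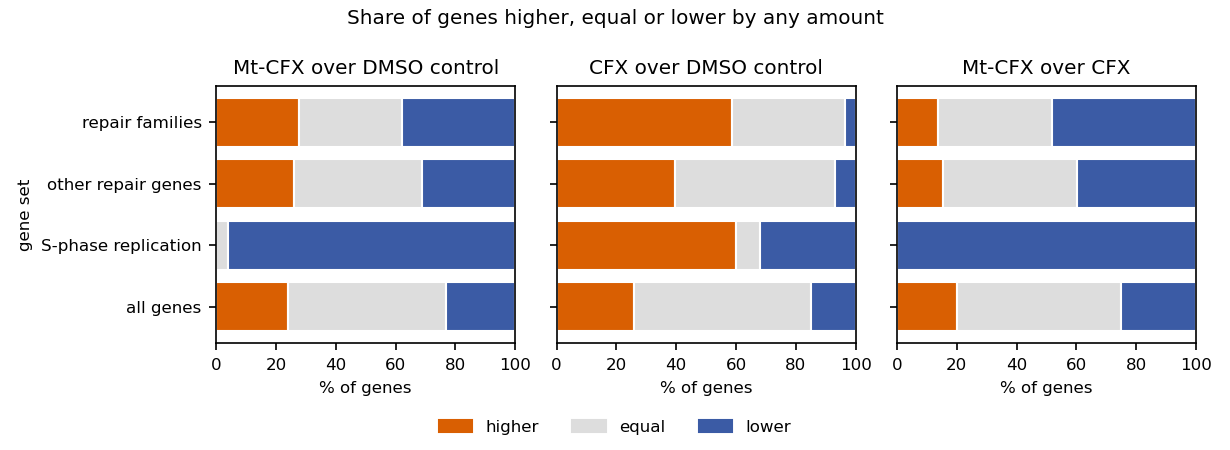
Percent of genes (horizontal axis) that were higher, equal or lower by any amount, for the repair families, other repair genes, S-phase replication genes and all compared genes (vertical axis), in the 3 comparisons. With CFX over DMSO control 17 of 29 repair family genes are higher, and with Mt-CFX over DMSO control 24 of 25 replication genes are lower.

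Repair genes outside these symbols were read from lists chosen with earlier results of these data known, of which 58 genes were above the floor. At 1.2-fold, 7 were lower and 2 higher with Mt-CFX than in the control, 0 lower and 1 higher with CFX, and 11 lower and 0 higher with Mt-CFX than with CFX. The shares of all compared genes were 5.73% lower and 5.99% higher, 1.29% lower and 1.76% higher, and 5.76% lower and 4.68% higher in these comparisons, and counts of 1 or 2 genes in a list are near them. In double-strand break repair 3 of 19 genes were lower with Mt-CFX by that size and 0 were higher. The helicase gene BRIP1, whose protein binds BRCA1, was at −0.59, the resection nuclease gene DNA2 at −0.44 and BARD1, which forms a ubiquitin ligase with BRCA1, at −0.31. PALB2, TP53BP1 and MUS81 were equal on the 3 arrays. Between the compounds DNA2 was at −0.66, BRIP1 at −0.60, SFR1 at −0.35, BARD1 at −0.31 and TOP3A at −0.28.

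Crosslink repair, the class to which no member was assigned, was read through 15 such genes. With Mt-CFX 3 of them were lower at 1.2-fold, against 5.73% of all compared genes lower and 5.99% higher. They were BRIP1, already counted in double-strand break repair, the nuclease gene DCLRE1B at −0.41 and CENPX, a partner of the FANCM anchor, at −0.38. WDR48, a cofactor of the enzyme that removes ubiquitin from FANCD2 and FANCI, was higher at 0.35, and that enzyme's gene USP1 differed by 0.20 with either compound. The nuclease scaffold SLX4 and the nuclease FAN1 were equal on the 3 arrays.

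In mismatch repair 4 listed genes were measured. PCNA, the sliding clamp that also serves replication, was at −0.22 with Mt-CFX and 0.31 with CFX, and the MutL genes PMS1 and PMS2 had differences of 0.11 and 0.09 with either compound. In excision repair 2 of 22 genes were lower with Mt-CFX at 1.2-fold and 1 was higher, against 5.73% and 5.99% of all compared genes. FEN1, the flap nuclease of long-patch base excision and of replication, was at −1.14, UNG, which removes uracil from DNA, at −0.62, and SMUG1, another uracil glycosylase, at 0.30. Between the compounds FEN1 was at −0.92, UNG at −0.60 and PARP1, the sensor of strand breaks, at −0.30. PCNA and FEN1 are also in the replication list.

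**Figure D4:**
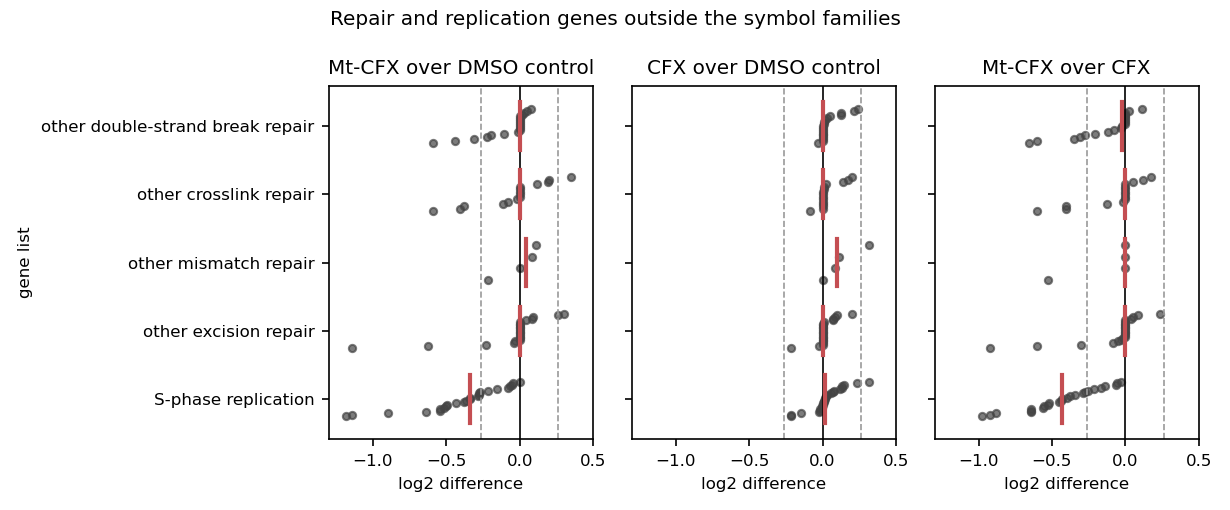
Log2 differences (horizontal axis) of repair and replication genes outside the symbol families, by list (vertical axis), 1 point per gene, with the median as a red bar and dashed lines at 1.2-fold. The replication list has its median at −0.34 with Mt-CFX over DMSO control, and the repair lists have medians between 0.00 and 0.043 there.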

How the data were processed

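Per the labels' protocols, total RNA was amplified and biotin-labelled with GeneChip kits for whole transcripts. Per the submitters' processing notes, the deposited log2 values per probe set come from Affymetrix Expression Console with RMA, and no version or build is given in the sources used here. As background, RMA makes the distributions of arrays alike and summarises probes by a median polish across arrays, so differences in total RNA are not visible. Of 53617 probe sets 49.5% were equal on all 3 arrays. The number of arrays limits the precision.

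Names of probe sets came from the platform annotation (16098 with 1 gene symbol, 0 with several), all matched to the reference table by gene ID, and 37519 were unnamed here. MSH5 was the only member with several probe sets. Members and lists were chosen with earlier results of these data known. Values on all arrays were given for members whose difference reached 1.2-fold, for measured preset genes and for some further members. The rest were named by difference or as equal. Classes followed textbook roles, with EXO1 counted in double-strand break repair. Of the 33 members 28 had a promoter in the table. Of the 12 preset genes RAD50, MRE11, EXO1 and XRCC1 were measured, and the others were not analysed here. Counting was tested only on simulated data with shifts well past 1.2-fold and little noise. That check of the code does not bear on differences near 1.2-fold or on the spread between cultures. Alternatives were other floors, averaging the probe sets of a gene, lowess re-centring (span 0.3), 1.5-fold and 2-fold, class means and EXO1 in mismatch repair. Python 3.11.15, numpy 2.4.6, pandas 2.3.3, statsmodels 0.14.6 and matplotlib 3.10.9 were used.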

Additional observations from a re-analysis of the deposited data

How the results depend on the processing

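Of the values recomputed under the alternatives, 198 stayed within 0.05 log2 or, for counts, within 1.5 times, and 9 moved. Many of the 198 could not move, so their number does not measure stability. Each member above the floor was so on all 3 arrays, and only MSH5 had several probe sets. At 1.5-fold and at 2-fold the members lower with Mt-CFX than in the control, and lower than with CFX, each numbered 0. With the floor at the 75th percentile of all probe sets, which left 11 genes of double-strand break repair, their median was 0.10 log2 in CFX over control and −0.20 in Mt-CFX over CFX. With means in place of medians, mismatch repair stood at 0.0049 in Mt-CFX over control and −0.046 in Mt-CFX over CFX, where MSH6 lies apart from the other 3 genes, and all members stood at −0.084 in Mt-CFX over CFX. Re-centring, the mean of probe sets, no floor and a floor on the mean moved no value by 0.05 or more and no count beyond 1.5 times. Moving EXO1 to mismatch repair moved no median by 0.05 or more. Counts were not recomputed for that move, and the counts per class at 1.2-fold depend on where EXO1 is placed. RAD54L, EXO1, MSH6 and XRCC6 have 1 probe set each, so neither a floor nor the averaging of probe sets can alter their differences, and re-centring left Mt-CFX over control as it was. No paired analysis was possible because each group was 1 array. No array could be left out for the same reason, and with no repeat culture the differences here, most of them under 1.2-fold, cannot be told apart from variation between cultures.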

Other observations

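Checkpoint kinases, their mediators and the CDC25 phosphatases, which drive the cycle forward and are held back by the checkpoint, formed a list of 15 genes, of which 14 were above the floor. With CFX 9 were higher by any amount, 0 were lower and 5 were equal, with a median of 0.042 log2 and none at 1.2-fold. Of all compared genes 25.8% were higher and 15.0% lower with CFX. TIPIN, a fork protection factor, was higher by 0.20 with either compound, and the clamp subunit HUS1 by 0.11. With Mt-CFX 2 of the 14 were lower than the control at 1.2-fold, against 5.73% of all compared genes, the phosphatase gene CDC25A at −0.59 and CLSPN, which brings CHEK1 to its activating kinase, at −0.39. CHEK1 differed by −0.15 with Mt-CFX and 0.09 with CFX, while ATR, CHEK2 and TOPBP1 were equal on the 3 arrays.

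Non-coding genes with family symbols were left out of the members. MSH5-SAPCD1, a readthrough transcript that overlaps MSH5, had 5 probe sets. Each was higher with CFX, by 0.16 to 0.17 log2, and equal between Mt-CFX and the control. Most of these probe sets had identical values on every array, so they do not count as separate readings. How far the probes of MSH5 and of the readthrough read the same transcripts was not tested. RAD21-AS1 and both probe sets of ERCC6L2-AS1 were equal on the 3 arrays.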
